A study of Mus musculus with 9 samples.

Results

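The 10 genes described here encode amino acid transporters and were chosen by name from the 23234 genes listed in every library. They were Slc1a4, Slc1a5, Slc3a2, Slc7a1, Slc7a5, Slc7a6, Slc7a8, Slc7a11, Slc38a1 and Slc38a2. All 10 of 10 were listed in all 9 libraries and all had a mean of at least 1 FPKM (fragments per kilobase of transcript, scaled to the mapped fragments of the library), the level above which genes were tested. The libraries were made from RNA of mouse ILC2s, the group 2 class of innate lymphocytes, tissue cells that respond to alarm cytokines, taken from lymphoid clusters in the fat of wild-type C57BL/6 mice. The cells were kept in culture for 48 h in 3 groups of 3 libraries each. All groups received IL-33 at 10 ng/ml, a cytokine that activates ILC2s. The first group received nothing else, the second also received IFN-γ (the type II interferon) at 10 ng/ml, and the third also received IL-27 (a cytokine of the IL-12 family) at 10 ng/ml. There was no group without IL-33. The labels do not say whether libraries of a group came from different animals or cultures. A p-value here therefore reflects library-to-library spread, which may be technical.

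Amino acids enter lymphocytes through carriers of several families. Activated lymphocytes make more of these carriers, and the amino acids they bring in feed protein synthesis and the growth kinase complex mTORC1. The heteromeric carriers pair 1 heavy chain, 4F2hc (also called CD98, encoded by Slc3a2), with a light chain that carries the amino acid: LAT1 (Slc7a5) and LAT2 (Slc7a8) exchange large neutral amino acids such as leucine, y+LAT2 (Slc7a6) exchanges cationic for neutral amino acids, and xCT (Slc7a11) takes up cystine for glutamate. The other members work without that heavy chain: ASCT1 (Slc1a4) and ASCT2 (Slc1a5) are sodium-dependent exchangers of small neutral amino acids and, for ASCT2, glutamine. CAT1 (Slc7a1) takes up arginine and lysine, and SNAT1 (Slc38a1) and SNAT2 (Slc38a2) take up glutamine and other neutral amino acids with sodium.

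The libraries differed little in overall size: the FPKM values of a library summed to 628625 to 672534, and 10504 to 11004 genes reached 1 FPKM. Depth, estimated from the steps between low values, was about 860000 to 990000 fragments per library, which is shallow. At that depth Slc1a4 rested on an estimated 0 to 17 fragments per library and the other 9 members on 33 to 519. All 10 ILC2 markers (among them Gata3, the ILC2 lineage factor, and Il1rl1, the IL-33 receptor) were tested genes, whereas all 4 adipocyte markers (Adipoq, Plin1, Fabp4 and Lep) were at 0 in every library, as were Cd4, Csf1r, C1qa, Mcpt4 and Kdr. The ILC2 markers were not all stable: 3 of the 10 were called lower with IFN-γ and 0 higher in the main test described below. Of all genes, 0.717% were called lower and 2.19% higher there. The 3 were Il2ra, Il5 and Il13 (limma adjusted p 0.00495, 0.0167 and 0.0282). Some markers of other cell types were present. The B cell marker Cd79b was at 20.3 to 83.9 FPKM, the macrophage marker Cd68 at 1.16 to 18.8 and the mast cell marker Fcer1a at 0 to 8.3. Features of small RNAs held 11.9% to 17.9% of the FPKM in the first library of each group and 3.51% to 8.16% in the others. The third library of each group stood apart in another way. In it the summed fibroblast markers were 36.2 to 86.5 FPKM against 2.92 to 17.6 in the first and second libraries. The summed mast cell markers were 5.7 to 11.5 FPKM in the third libraries against 0 to 2.51, and Fcer1a alone held 4.9 to 8.3 of that. Cd3g, a subunit of the T cell receptor complex, was at 75.8 to 97.6 FPKM there against 28.4 to 43.2, whereas Cd3e stayed at no more than 2.51 in any library and Cd4 at 0. With small RNA features left out and the rest rescaled, the 5 blocked calls with IFN-γ described next became 7, with Slc1a5 (limma adjusted p 0.0379) and Slc38a1 (0.0398) added. They became 2, Slc7a5 (limma adjusted p 0.0269) and Slc7a8 (0.0201), when the third library of every group was left out, and the log2 fold changes of the other 3 were then -0.68 for Slc3a2, -0.68 for Slc7a1 and -0.71 for Slc38a2 (adjusted p 0.128, 0.124 and 0.0948). In bulk RNA, fewer cells of a type and less RNA per cell cannot be told apart.

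In cells given IL-33 alone the transporters spanned more than an order of magnitude. Per length, mean levels were 78.5 FPKM for Slc3a2, 77.3 for Slc7a8, 77.0 for Slc1a5 and 64.1 for Slc7a5, and the libraries of these 4 genes overlapped. Slc38a2 at 44.0, Slc38a1 at 39.9 and Slc7a1 at 39.6 FPKM followed and did not differ from each other beyond their spread. Slc7a6 at 18.9 and Slc7a11 at 13.2 FPKM overlapped each other and lay below those 7 genes in the same library. Slc1a4 was lowest at 3.63 ± 0.953 FPKM (SD, n = 3). With IFN-γ the order changed: Slc1a5 at 58.3 and Slc3a2 at 41.9 FPKM led, and Slc7a5 and Slc7a8 stood at 25.1 and 24.6 FPKM, beside Slc38a1, Slc38a2 and Slc7a1. Slc7a8 was above 88.5% of tested genes with IL-33 alone, 66.2% with IFN-γ and 88.0% with IL-27.

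**Figure D1:**
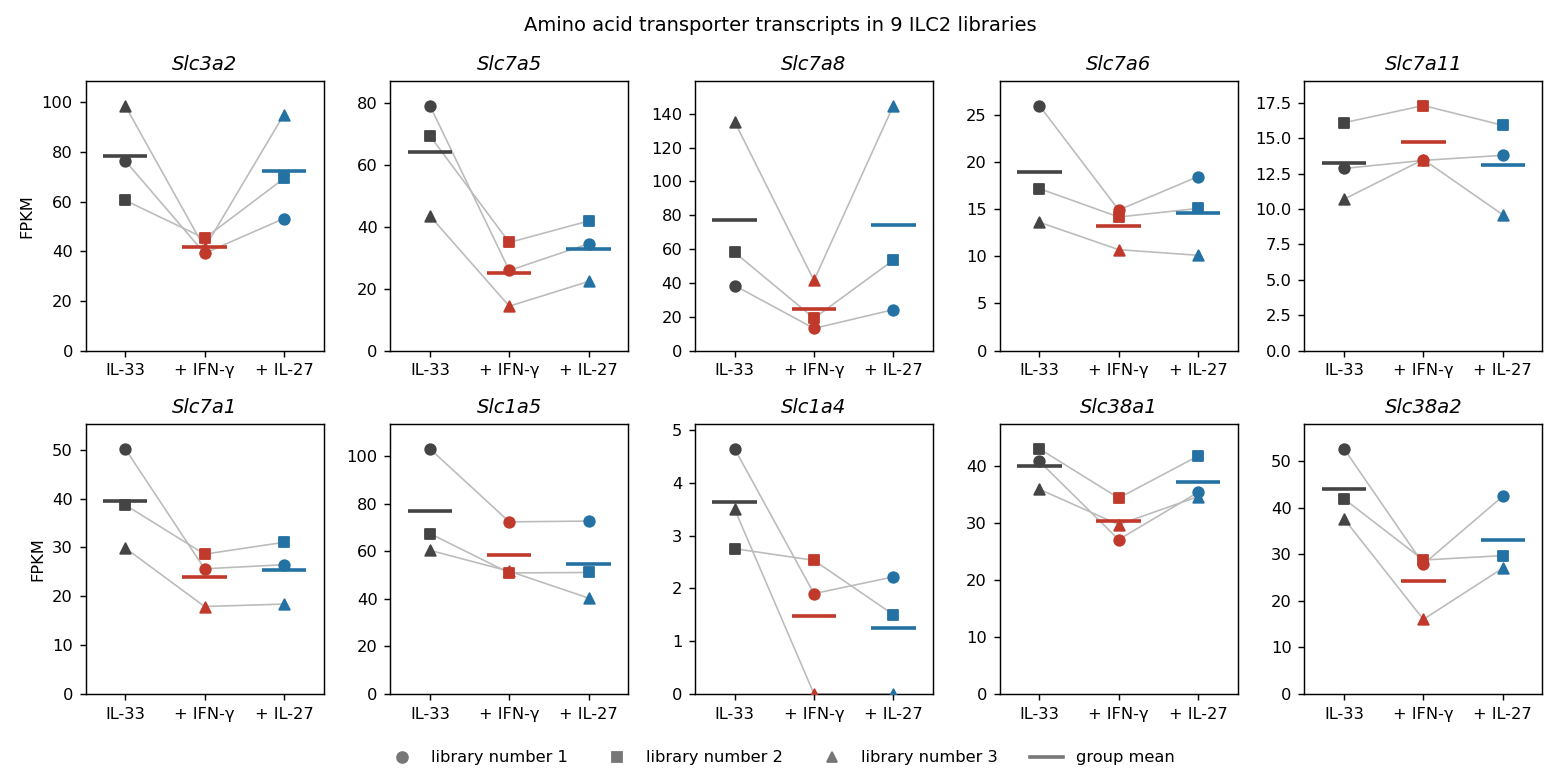
FPKM of each of the 10 transporter genes (panels) in the 3 libraries of each group (points). Horizontal bars mark the group mean, and grey lines join libraries of the same number. The IFN-γ libraries lay below all IL-33 libraries for 6 genes, Slc1a4, Slc3a2, Slc7a1, Slc7a5, Slc38a1 and Slc38a2, and Slc7a8 was highest in the third library of every group.

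IFN-γ was compared with IL-33 alone to ask how the type II interferon altered these transporters. Transcripts of 5 members, Slc7a5, Slc7a8, Slc3a2, Slc7a1 and Slc38a2, fell with IFN-γ in a limma fit that compares libraries of the same replicate number (the blocked fit, Benjamini-Hochberg adjusted p under 0.05). These genes encode the large neutral amino acid carriers LAT1 and LAT2, their heavy chain, an arginine carrier and a glutamine carrier. Carriers outside the 10 members are not covered by this count. The pairing behind the blocked fit was read from correlations over all tested genes. It was weaker among genes averaging 20 FPKM or more, as all 5 called members do. Slc7a11 did not share the direction. In the limma fit without the block, which treats the libraries of a group as unpaired and is the main test here, 0 of 10 members passed, whereas 6 of 10 had an unadjusted p under 0.05. Of all 11014 genes tested, 0.717% were called lower and 2.19% higher without the block, 4.66% were called lower in the blocked fit and 15.4% had an unadjusted p under 0.05 in either direction. Beside these shares, 5 of 10 members were lower in the blocked fit and 0 of 10 higher (6.51% of all genes). The members and tests were chosen with earlier results of these data known. The counts therefore describe these members and do not test for an excess over all genes. In 6 of 10 members every IFN-γ library lay below every IL-33 library, against 8.65% of all genes, and 9 of 10 were lower in all 3 pairs, against 21.1%. The estimate was below 0 for 9 of 10 members and for 47.4% of all genes. The median log2 fold change of the members was -0.78, and that of all tested genes 0.03. Folds here are on the log2(FPKM + 1) scale, which understates the change of low genes.

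The light chain LAT1 gave the smallest p of the members. Slc7a5 (chromosome 8, 124405052 to 124431594, minus strand, mm9, GENCODE vM1) was at 79.3, 69.5 and 43.6 FPKM in IL-33 libraries 1, 2 and 3, at 25.9, 35.0 and 14.4 with IFN-γ, and at 34.6, 42.0 and 22.4 with IL-27. Each IL-33 library was above every library of the other 2 groups. Within the pairs the IL-33 library held 3.06, 1.99 and 3.03 times as much as the IFN-γ library. Against IL-33 the log2 fold change with IFN-γ was -1.36 ± 0.36 (SE), with a limma adjusted p of 0.0847 without the block and 0.00150 with it, so the call rests on the pairing. In the blocked fit the 95% confidence interval ran from -1.71 to -1.01, a fold of 2.57 lower. The blocked call for Slc7a5 held in 9 of 9 fits that each left out 1 library, with limma adjusted p of 0.00391 to 0.0101. The locus overlaps Gm20388 on the plus strand, a gene without a value in the tables, and whether the counting used strand is not given in the sources used here.

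LAT2 carries overlapping substrates but behaved differently from LAT1 across libraries. Slc7a8 (chromosome 14, 55341053 to 55400723, minus strand) was at 38.5, 58.1 and 135.3 FPKM in the IL-33 libraries, at 13.2, 19.2 and 41.5 with IFN-γ, and at 24.2, 53.5 and 144.8 with IL-27. The third library was the highest of each group, at 2.56 to 3.72 times the mean of the other 2 libraries, so the groups overlapped. Within the pairs, however, the IL-33 library held 2.92, 3.03 and 3.26 times as much as the IFN-γ library. The log2 fold change with IFN-γ was -1.57 ± 0.66 (SE; adjusted p = 0.297 in limma without the block) and its blocked adjusted p was 0.00186, with an interval of -1.99 to -1.15 in log2. The blocked call for Slc7a8 held in 9 of 9 fits that left out 1 library (adjusted p 0.00111 to 0.0155 in limma). The fibroblast marker sum and Cd3g were also highest in the third libraries, and their part in the Slc7a8 result was not tested.

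**Figure D2:**
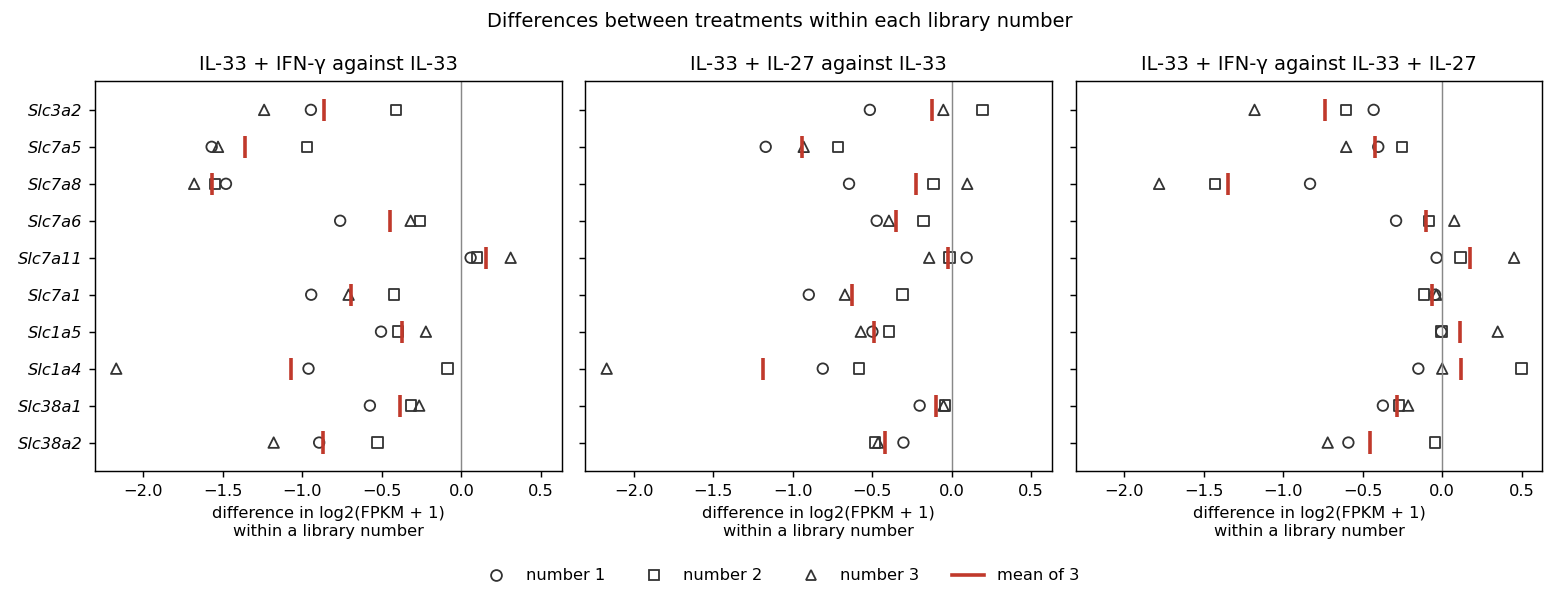
Log2 differences in log2(FPKM + 1) between libraries of the same replicate number, for each transporter in the 3 comparisons. The 3 IFN-γ pairs of Slc7a8 lie between -1.68 and -1.48, whereas its IL-27 pairs lie nearer to 0.

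The heavy chain moved in the same direction with IFN-γ. Slc3a2 (chromosome 19, 8781372 to 8797859, minus strand) was at 76.4, 60.5 and 98.6 FPKM with IL-33, at 39.2, 45.2 and 41.3 with IFN-γ, and at 53.2, 69.3 and 95 with IL-27. The IFN-γ libraries lay below every library of both other groups and were close to each other (41.9 ± 3.05, SD, n = 3). IFN-γ gave a log2 fold change of -0.86 ± 0.24 (SE), with a limma adjusted p of 0.110 without the block and 0.0261 with it. In the 9 blocked fits that left out 1 library, the Slc3a2 call held in 4. It was lost without IL-33 library 1 (adjusted p 0.0998 in limma) or 3 (0.0985), IFN-γ library 1 (0.0656) or 3 (0.0827), and IL-27 library 2 (0.0513).

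The light chains that pair with 4F2hc were also summed, as a description of these libraries. Slc7a5, Slc7a6, Slc7a8 and Slc7a11 together held 157, 161 and 203 FPKM with IL-33, against 67.5, 85.7 and 80.1 with IFN-γ, and 91.1, 127 and 187 with IL-27. The ratio of Slc3a2 to that sum was 0.450 ± 0.0639 (SD, n = 3) with IL-33, 0.541 ± 0.0346 with IFN-γ and 0.547 ± 0.0377 with IL-27. The ratio was 0.376 to 0.488 in the IL-33 libraries and 0.508 to 0.584 in the 6 treated libraries, which lay above all of them. The share of Slc7a8 was highest in the third library of every group: it made up 24.6%, 36.1% and 66.6% of the sum in IL-33 libraries 1, 2 and 3, 19.5%, 22.4% and 51.8% with IFN-γ, and 26.6%, 42.3% and 77.5% with IL-27. Slc7a5 exceeded Slc7a8 in the first library of every group and was below it in the third library of every group. In the second libraries it exceeded Slc7a8 with IL-33 and with IFN-γ (ratios of 1.20 and 1.83) but not with IL-27 (0.784).

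**Figure D3:**
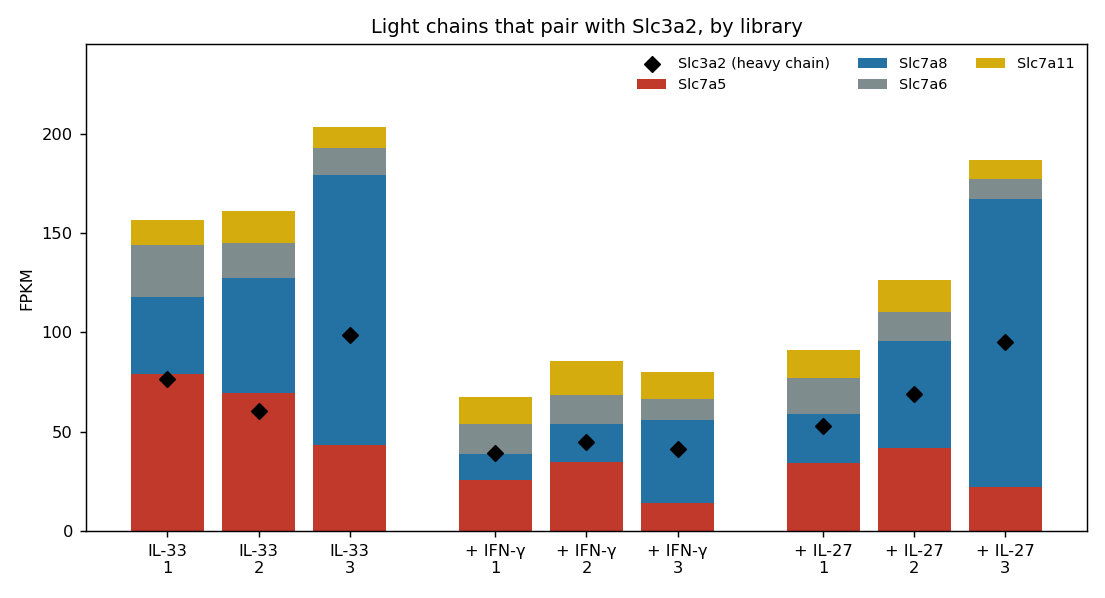
FPKM of the 4 light chains that pair with the heavy chain Slc3a2, stacked for each library, with the level of Slc3a2 in the same library. Slc7a8 makes up 51.8% to 77.5% of the light chain sum in the third libraries and 19.5% to 42.3% in the others.

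Of the remaining light chains, y+LAT2 and xCT gave no call. Slc7a6 (chromosome 8, 108692775 to 108722604, plus strand) was at 26, 17.2 and 13.6 FPKM with IL-33, at 14.9, 14.2 and 10.7 with IFN-γ, and at 18.4, 15.1 and 10.1 with IL-27, with overlapping groups. Its log2 fold change with IFN-γ was -0.45 ± 0.29 (SE), and its limma adjusted p was 0.524 without the block and 0.116 with it.

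Slc7a11 (chromosome 3, 50168858 to 50247535, minus strand) was the exception to the direction of the others. It was at 12.9, 16.1 and 10.7 FPKM with IL-33, at 13.4, 17.3 and 13.5 with IFN-γ, and at 13.8, 15.9 and 9.6 with IL-27. Slc7a11 was the 1 member higher with IFN-γ in all 3 pairs, where 24.4% of all genes were, but by little, and the groups overlapped. The log2 fold change was 0.16 ± 0.24 (SE; limma adjusted p 0.837, and 0.577 in the blocked fit), with a 95% interval of -0.39 to 0.70 in the fit without the block.

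Among the carriers that work without 4F2hc, CAT1 and SNAT2 were lower with IFN-γ in the blocked fit. Slc7a1 (chromosome 5, 149138986 to 149211480, minus strand) was at 50.2, 38.7 and 29.9 FPKM with IL-33, at 25.6, 28.6 and 17.9 with IFN-γ, and at 26.5, 31.1 and 18.4 with IL-27. The IFN-γ libraries lay below all IL-33 libraries, while 1 IL-27 library, the second, overlapped them. Slc7a1 had a log2 fold change with IFN-γ of -0.69 ± 0.27 (SE), with a limma adjusted p of 0.258 without the block and 0.0239 with it. The Slc7a1 call held in 4 of 9 blocked fits that left out 1 library. It was lost without IL-33 library 1 (0.0877) or 3 (0.0791) and without IFN-γ library 1 (0.0875), 2 (0.0712) or 3 (0.0740), all limma adjusted p.

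Slc38a2 (chromosome 15, 96517825 to 96530129, minus strand), which encodes the glutamine carrier SNAT2, was at 52.6, 41.9 and 37.6 FPKM with IL-33, at 27.9, 28.7 and 16.0 with IFN-γ, and at 42.4, 29.7 and 27 with IL-27. All IFN-γ libraries were below all IL-33 libraries, and the IL-27 libraries lay between, overlapping both. The log2 fold change with IFN-γ was -0.87 ± 0.27 (SE; limma adjusted p 0.15 without the block, 0.0142 with it). The Slc38a2 call held in 5 of 9 blocked fits and was lost without IL-33 library 1 (limma adjusted p 0.0502) or 3 (0.0603) and without IFN-γ library 1 (0.0583) or 3 (0.0513). Its relative SNAT1, Slc38a1 (chromosome 15, 96401849 to 96473344, minus strand), was at 40.8, 43.0 and 35.9 FPKM with IL-33, at 27.1, 34.4 and 29.7 with IFN-γ, and at 35.4, 41.7 and 34.6 with IL-27. The IFN-γ libraries of Slc38a1 lay below every other library, by a small margin. Its log2 fold change of -0.39 ± 0.17 (SE) did not pass the test with or without the block (limma adjusted p 0.0737 and 0.324), but did in the blocked fit on rescaled values (0.0398).

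The glutamine exchanger ASCT2 was among the most abundant carriers in every group and gave no call. Slc1a5 (chromosome 7, 17366695 to 17383623, plus strand) was at 103, 67.4 and 60.4 FPKM with IL-33, at 72.4, 50.9 and 51.6 with IFN-γ, and at 72.7, 51.1 and 40.3 with IL-27. The first library was the highest of each group and the groups overlapped. The log2 fold change with IFN-γ was -0.38 ± 0.28 (SE), with a limma adjusted p of 0.577 without the block, 0.0739 with it and 0.0379 with it on rescaled values.

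ASCT1 was close to the limit of detection. Slc1a4 (chromosome 11, 20202183 to 20232716, minus strand) was at 4.64, 2.75 and 3.5 FPKM with IL-33, at 1.90 and 2.53 in IFN-γ libraries 1 and 2, and at 2.22 and 1.5 in IL-27 libraries 1 and 2. It was listed at 0 in the third library of both latter groups. For this gene 3 fragments are worth an estimated 0.769 to 0.884 FPKM, a limit that covers counting error only. All treated libraries lay below the IL-33 libraries, but neither comparison passed the test (limma adjusted p 0.424 with IFN-γ and 0.563 with IL-27, and 0.155 and 0.171 in the blocked fit).

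IL-27 was compared with the same 3 IL-33 libraries, so this comparison shares its controls with that of IFN-γ. Slc7a5 was the 1 member of 10 that fell in the blocked fit, and 0 of 10 passed the limma test without the block, where 2 of 10, Slc7a1 and Slc7a5, had an unadjusted p under 0.05. Of all genes, 0.118% were called lower and 0.908% higher without the block, 1.78% lower and 3.37% higher in the blocked fit, and 9.51% had an unadjusted p under 0.05, so 1 or 2 of 10 members is little above the background. For Slc7a5 the log2 fold change was -0.94 ± 0.36 (SE), a fold of 1.92 lower, with a limma adjusted p of 0.411 without the block and 0.0121 with it. That call held in 4 of 9 blocked fits. It was lost without IL-33 library 1 (limma adjusted p 0.0558) or 3 (0.0566) and without IL-27 library 1 (0.0769), 2 (0.0673) or 3 (0.0531), and also without the third libraries, where the estimate was -0.94 (0.0863).

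The other members also had estimates below 0 with IL-27, as had 48.5% of all genes, and gave no call. All IL-27 libraries lay below all IL-33 libraries in 2 of 10 members, Slc1a4 and Slc7a5 (5.72% of all genes), and 7 of 10 members were lower in all 3 pairs (19.5%). The median log2 fold change was -0.38 over the members and 0.01 over all tested genes. The arginine carrier Slc7a1 had a log2 fold change of -0.63 (limma adjusted p 0.504, blocked 0.0534) and Slc1a5 of -0.49 (0.656, blocked 0.0516). Both passed in the blocked fit with a 5 FPKM filter (0.0397 and 0.0454), median centring (0.0459 and 0.0443) or rescaling without small RNAs (0.0355 and 0.0335), all limma adjusted p. Slc38a2 stood at -0.42 (0.705, blocked 0.199), Slc7a6 at -0.35 (0.784, blocked 0.272) and Slc38a1 at -0.10 (0.919, blocked 0.700). The heavy chain Slc3a2 stood at -0.13 (limma adjusted p 0.927, blocked 0.769) and xCT, Slc7a11, at -0.02 (0.993, blocked 0.962). For LAT2, Slc7a8, the estimate was -0.22 with a 95% interval of -1.71 to 1.27 in the limma fit without the block (adjusted p 0.960) and of -0.64 to 0.19 in the blocked fit (0.551), neither of which shows that IL-27 left it as it was.

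**Figure D4:**
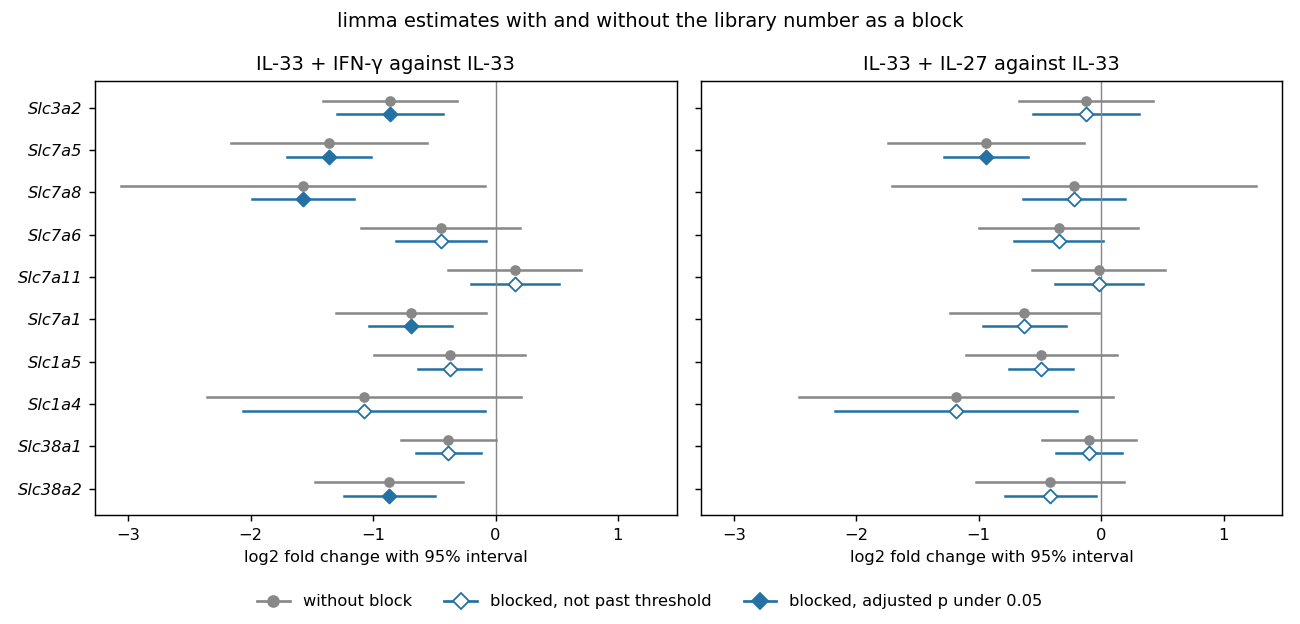
Log2 fold changes of the 10 transporters against IL-33 alone, for IFN-γ and for IL-27, with 95% confidence intervals of the limma fits without and with the replicate block. With IFN-γ the estimates of 9 of 10 genes lie below 0, down to -1.57 for Slc7a8, and with IL-27 all 10 do, down to -1.19 for Slc1a4.

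IFN-γ and IL-27 were then compared directly, since a call in one comparison and not in the other does not show that they differ. Slc7a8 was the 1 of 10 members that passed, lower with IFN-γ than with IL-27 by a log2 fold change of -1.35 in the blocked fit (limma adjusted p 0.0482). The IL-27 library held 1.84, 2.79 and 3.49 times as much Slc7a8 as the IFN-γ library of the same number. The call held in 1 of 9 blocked fits that left out 1 library (limma adjusted p 0.0433 to 0.264), and without the third libraries the estimate was -1.13 (0.275). It was also lost with median centring (0.0515). Of all genes 0.127% were called lower and 0.0545% higher in that fit. Without the block 0 of 10 members passed, and neither did any other gene (0% of all genes in either direction), while 1 of 10, Slc3a2, had an unadjusted p under 0.05 (4.39% of all genes). Every IFN-γ library lay below every IL-27 library for Slc3a2 and Slc38a1, 2 of 10 members against 4.03% of all genes, and 6 of 10 were lower in all 3 pairs (15.7%). The estimate was below 0 for 7 of 10 members and 47.8% of all genes. Slc3a2 differed by -0.74 in log2 (limma adjusted p 0.197 in the blocked fit) and Slc7a5 by -0.42 (0.351), so a difference between IFN-γ and IL-27 was not shown for these.

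The summed level of the 10 transporters describes the same libraries in 1 value. It was 456 ± 36.4 FPKM (SD, n = 3) with IL-33, 258 ± 19.9 with IFN-γ and 359 ± 40.0 with IL-27. No library of one group lay in the range of another. Since the members were chosen by name, with earlier results known, no test is attached to this sum.

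How much of each transporter's variation followed the cytokines differed among the members. The groups accounted for 68.4% of the variation of Slc3a2 over the 9 libraries, 64.9% for Slc7a5, 64.6% for Slc38a1 and 60.1% for Slc38a2, where the median over all tested genes was 24.7%. For Slc7a11, Slc7a6, Slc1a5 and Slc7a8 the replicate number took the larger share, at 77.3%, 64.6%, 64.3% and 56.4%, against a median of 38.7% over all genes. The share left over by both was 2.94% for Slc7a5 and 2.45% for Slc7a8, against 24.3%. Of the 10 members these 2 genes had the smallest share left over.

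**Figure D5:**
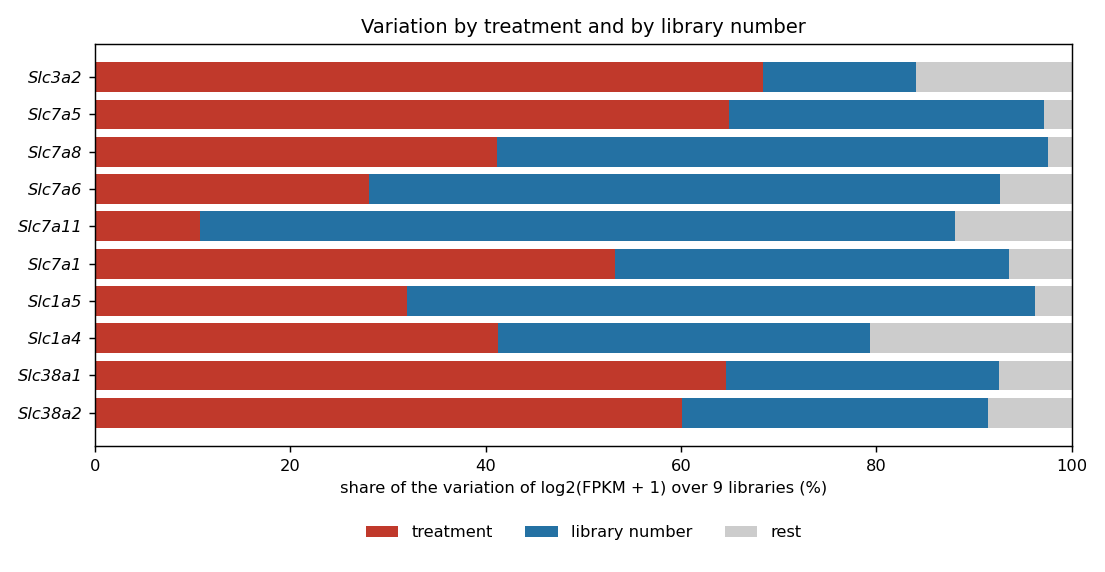
Share of each transporter's variation in log2(FPKM + 1) over 9 libraries that goes with the cytokine group, with the replicate number and with neither. For Slc7a5 the shares are 64.9%, 32.2% and 2.94%, and for Slc7a8 41.2%, 56.4% and 2.45%.

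Genes whose log2(FPKM + 1) over the 9 libraries ran most like Slc7a5 were picked from all tested genes by Pearson's r, as a description with no test, since libraries share a group and a number. They were Mid1ip1 (r = 0.978), Senp5 (0.968), Utp6 (0.966), the member Slc7a1 (0.964) and Car12 (0.961). Mid1ip1, which promotes acetyl-CoA carboxylase assembly in fat synthesis, averaged 23.6 FPKM with IL-33, 9.05 with IFN-γ and 12.3 with IL-27. Car12, a carbonic anhydrase, averaged 14.2, 5.89 and 6.31 FPKM. The heavy chain Slc3a2 itself followed Slc7a5 loosely (r = 0.397) and Slc7a8 more closely (r = 0.867). For Slc3a2 the most similar genes were Pigl (0.962), Myh10 (0.957), Jhdm1d (0.941), Capn7 (0.938) and Hs3st3b1 (0.938).

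Promoter sequence was looked at because several carriers are known targets of ATF4, the transcription factor of the amino acid response, and because IFN-γ and IL-27 signal through STAT factors. RefSeq windows from 250 bases before to 50 after the start (GRCm38.p6) were found for 7 of the 10 members, and not for Slc1a5, Slc7a5 and Slc38a1. The composite element of ATF4 and C/EBP, TGATGNAA on either strand, was in 2 of the 7, Slc7a11 and Slc1a4, and in 3.97% of 32851 windows of all genes. The STAT element TTCNNNGAA, which reads the same on both strands, was in 2, Slc7a11 and Slc7a1, and in 8.30% of windows. Slc7a1 and Slc7a6 have 2 windows each. A member was counted if any of its windows held a match, whereas the shares are of windows. For Slc7a1 the other window held no match. The E-box CACGTG was in 0 of the 7 and in 7.15% of all windows. The stretch of each such window that holds the matches is shown, on the strand of the gene with matches in capitals. Slc7a11 holds a STAT match at base -183 from the start and 2 composite matches at -66 and -47 (chr3:50443644-50443803, minus strand), Slc1a4 a composite match at -4 (chr11:20332710-20332737, minus strand), and Slc7a1 a STAT match at -146 (chr5:148392940-148392975, minus strand).
Slc7a11: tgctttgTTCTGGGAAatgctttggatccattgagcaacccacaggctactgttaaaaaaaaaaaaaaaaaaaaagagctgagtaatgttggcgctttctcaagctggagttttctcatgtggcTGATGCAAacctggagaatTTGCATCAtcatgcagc
Slc1a4: cctccagcgtgcctcctgcgTTGCATCA
Slc7a1: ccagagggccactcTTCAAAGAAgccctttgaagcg
The 2 members with the composite element were Slc7a11, the 1 member higher with IFN-γ in all pairs, and Slc1a4, the least abundant. A match of letters is a description of the window and not a measured binding site.

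Other genes of amino acid handling were counted from lists. Of 40 further amino acid transporters 15 reached the tested level, and 0 of 15 passed the limma test without the block against IL-33 with IFN-γ or with IL-27. In the blocked fit 2 of the 15 were lower with IFN-γ (4.66% of all genes) and 0 with IL-27 (1.78%). These 2 were the taurine carrier Slc6a6, which averaged 36.7 ± 8.44 FPKM (SD, n = 3) in IL-33 libraries and 24.8 ± 4.87 in IFN-γ libraries, and the proton-coupled carrier Slc36a1, at 13.5 ± 2.90 and 6.83 ± 1.59.

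The enzymes that make or break down amino acids had calls in the test without the block. Of 21 tested, 1 rose and 2 fell with IFN-γ, where 2.19% of all genes were called higher and 0.717% lower. In the blocked fit 1 rose and 7 fell, where 6.51% and 4.66% of all genes did. Asns, which makes asparagine and is a known ATF4 target, was at 26.5 ± 4.16 FPKM (SD, n = 3) with IL-33, 6.75 ± 2.03 with IFN-γ and 9.35 ± 2.44 with IL-27, and fell with both (limma adjusted p 0.00560 and 0.0445). The IFN-γ call for Asns held in 9 of 9 fits that left out 1 library but not without the third libraries (limma adjusted p 0.0789). The IL-27 call held in 1 of 9, with a limma adjusted p of up to 0.177, and was lost with no filter (0.180), with 2 groups only (0.0762) and without the third libraries (0.208). Ass1, which makes argininosuccinate, the precursor of arginine, from citrulline, rose with IFN-γ from 35.8 ± 2.00 to 93.9 ± 20 FPKM (limma adjusted p 0.00907). That call was lost without IFN-γ library 2 (0.0522) and with no filter on low genes (0.0519). Bcat1, which transfers the amino group of leucine and its relatives, fell with IFN-γ from 3.16 ± 0.907 to 0.255 ± 0.250 FPKM (limma adjusted p 0.0404) and kept that call in 0 of 9 fits that left out 1 library, nor with a pseudocount of 0.1 (0.0823), 2 groups only (0.0802) or without the third libraries (0.168). With IL-27, 1 of the 21 enzymes fell without the block (0.118% of all genes) and 4 fell in the blocked fit (1.78%).

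Among 17 tested regulators of transporter genes, 2 rose without the block with IFN-γ (2.19% of all genes) and the same 2 with IL-27 (0.908%). In the blocked fit 2 rose and 1 fell with IFN-γ (6.51% and 4.66% of all genes), and 3 rose with IL-27 (3.37%). The third of these was Hif1a, which averaged 68.3 FPKM with IL-33 and 127 with IL-27 (limma adjusted p 0.214 without the block, 0.0470 with it). Atf3, a stress-induced factor related to ATF4, was at 1.72, 0 and 0 FPKM with IL-33, at 27.4, 25.5 and 20.2 with IFN-γ, and at 5.82, 5.26 and 7.10 with IL-27 (limma adjusted p 3.97e-04 and 0.0210). Eif2ak2, the double-stranded RNA kinase PKR, averaged 11.0 FPKM with IL-33, 29.3 with IFN-γ and 25.3 with IL-27 (limma adjusted p 0.00907 and 0.0409). The IFN-γ call held without each library in turn for Atf3 and was lost without IFN-γ library 2 for Eif2ak2 (0.0522). The IL-27 calls held in 3 of 9 such fits for Atf3 and in 2 of 9 for Eif2ak2, and both were lost with no filter (limma adjusted p 0.157 and 0.121), with 2 groups only (0.101 and 0.0925) and without the third libraries (0.207 and 0.0955). That of Atf3 was also lost with a pseudocount of 0.1 (0.0567). Atf4 itself averaged 145.7 ± 6.90 FPKM in IL-33 libraries and 84.8 ± 22.7 with IFN-γ. It was lower in the blocked fit (limma adjusted p 0.0234) but did not pass without the block (0.0748). With IL-27 Atf4 averaged 92.0 ± 5.81 FPKM and passed neither fit (limma adjusted p 0.271 without the block, 0.073 with it). Every IL-27 library of Atf4 lay below every IL-33 library. None of the 10 genes on the glutathione list passed without the block (0 of 10 with either cytokine). Of all genes, 2.19% were called higher and 0.717% lower with IFN-γ, and 0.908% and 0.118% with IL-27. In the blocked fit 2 of the 10 were lower with IFN-γ (4.66% of all genes). They were Gclc, of glutathione synthesis, at 32.2 and 18.7 FPKM, and Txnrd1, a thioredoxin reductase kept on the same list, at 155 and 88.9. With IL-27 1 of 10, Txnrd1, was lower in the blocked fit as well (1.78% of all genes), at 105 FPKM.

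The genes through which mTORC1 reads amino acids gave 0 of 30 calls without the block in any comparison. In the blocked fit 3 of 30 rose with IFN-γ (Lamtor2, Depdc5 and Sesn3) and 3 of 30 fell (Rraga, Sec13 and Eif4ebp1), shares near those of all genes (6.51% higher and 4.66% lower), so the counts say nothing about this list. The single genes were as follows. Rraga encodes RagA, a small GTPase that brings mTORC1 to the lysosome, and averaged 70.2 ± 3.19 FPKM (SD, n = 3) in IL-33 libraries and 45.0 ± 12.8 in IFN-γ libraries. Depdc5, a subunit of the GATOR1 complex that switches RagA off, averaged 6.78 ± 1.08 and 12.6 ± 2.32. For Lamtor2 the means of these groups, in the same order, were 18.3 ± 13.0 and 47.8 ± 4.36 FPKM. Those of Eif4ebp1 were 42.8 ± 9.34 and 21.2 ± 6.87, and those of Sec13 were 97.9 ± 8.83 and 69.3 ± 6.15. Whether mTORC1 activity changed was not tested. Sesn3, of the sestrin family, averaged 23.4 FPKM with IL-33, 55.0 with IFN-γ and 39.0 with IL-27, and rose with IL-27 too in the blocked fit. Gatsl3, which encodes the arginine sensor CASTOR1, was at 28.0, 70.0 and 170.0 FPKM with IL-33, at 36.8, 57.5 and 145.0 with IFN-γ, and at 76.0, 138.6 and 323.8 with IL-27. Like Slc7a8 it was highest in the third library of each group, and within each number it was highest with IL-27. It rose with IL-27 and was lower with IFN-γ than with IL-27, both in the blocked fit.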

How the data were processed

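RNA was sequenced from 9 libraries, and each deposited table lists a value for every gene. Per the submitters' processing notes, Bowtie2 2.1.0, TopHat2 2.0.8 and Cufflinks 2.1.1 were used with genome build mm9; their roles and the annotation are not given in the sources used here. The unit of the deposited values, FPKM, was inferred from Cufflinks and the values. A repeated header row was dropped from each table (9 in all), and commas that group digits were removed from the replicate 3 tables, which give 1 decimal. No read counts were analysed. Depth and fragments per gene were estimated from steps between low values and GENCODE vM1 lengths, so they are approximate. Coordinates come from GENCODE vM1 (mm9), where 93.1% of symbols had a single match.

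The 11014 genes averaging at least 1 FPKM were tested on log2(FPKM + 1) with limma 3.58.1 (trended, two-sided) in R 4.3.3, with all 3 groups in 1 fit and no covariate. P-values were adjusted over all tested genes by Benjamini-Hochberg with a threshold of 0.05. The fit was checked on simulated data. The labels number the libraries 1 to 3 in each group without saying what a number shares. Deviations from group means correlated at 0.128 to 0.367 in the 9 same-number pairs and at -0.298 to -0.0251 in the 18 other pairs. Because the deviations of a group cancel out, positive same-number correlations pull the other ones down. The other pairs are therefore not separate evidence of pairing. On the same-number values the numbers were treated as pairs, and a fit with the number as a block is given beside the results. When only genes averaging 20 FPKM or more were used, same-number pairs went down to 0.0332 and others up to 0.0706. The rule set for pairing asked that every same-number correlation be over 0.1. It held over all tested genes and not among those of 20 FPKM or more. The 5 members called with IFN-γ in the blocked fit average 29.7 to 64.3 FPKM, so their pairing rests on the wider set of genes. Alternatives covered the pseudocount (0.1), no filter or one at 5 FPKM, median centring, rescaling without small RNAs, 2 groups only, and libraries left out.

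The members, lists and tests were chosen with earlier results of these data known. Members, and list genes with the smallest adjusted p (up to 4 a list) under the threshold, were named by rule, and so were the 5 genes most like Slc7a5 and the member with the next smallest p. List genes called only in the blocked fit were named after their values were seen. Promoter windows are from RefSeq (GRCm38.p6). Figures were drawn with Python 3.11.15 and matplotlib 3.10.9.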

Additional observations from a re-analysis of the deposited data

How the results depend on the processing

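Without the replicate block no transporter passed under any setting tried. The lowest limma adjusted p was 0.0534 with IFN-γ (Slc3a2, small RNAs left out and the rest rescaled), 0.194 with IL-27 and 0.719 in the direct comparison. With the replicate block, 5 transporters were lower with IFN-γ, 1 with IL-27 and 1 with IFN-γ than with IL-27, and it changed no other call among the 10. In the blocked fit, chosen after seeing the data, a pseudocount of 0.1, a 5 FPKM filter, median centring and rescaling gave 5, 5, 5 and 7 lower with IFN-γ, 1, 3, 3 and 3 with IL-27, and 1, 1, 0 and 1 in the direct comparison. Leaving out 1 library in it gave 2 to 5, 0 to 2 and 0 to 1, and libraries 1 and 2 only gave 2, 0 and 0.

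Counts over all genes, higher and lower, were 241 and 79 with IFN-γ, 100 and 13 with IL-27, and 0 and 0 directly. They became 128 and 34, 32 and 13, and 2 and 2 with no filter; 717 and 513, 371 and 196, and 6 and 14 with the replicate block; and 148 and 28, 65 and 3, and 1 and 1 with libraries 1 and 2 only. Rescaling gave 128 lower with IFN-γ, and fitting 2 groups gave 40 lower with IFN-γ and 61 higher with IL-27. Leaving out 1 library gave 134 to 238 and 27 to 71, 46 to 115 and 4 to 13, and 0 to 1 and 0 to 1. The IFN-γ counts were lowest without IFN-γ library 2.

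No log2 fold change of a transporter with IFN-γ against IL-33 changed sign. With IL-27 those of Slc7a11 (-0.17 to 0.17), Slc3a2 (-0.34 to 0.075) and Slc7a8 (-0.88 to 0.39) did when 1 library was left out, as did in the direct comparison those of Slc1a5 (-0.082 to 0.34), Slc1a4 (-0.39 to 0.67), Slc7a1 (-0.27 to 0.13), Slc7a6 (-0.32 to 0.081) and Slc7a11 (-0.016 to 0.32). The omissions that did so in the blocked fit gave 0.050 (Slc3a2), 0.014 (Slc7a8) and 0.078 (Slc7a11) with IL-27, and 0.027 (Slc7a6), 0.026 (Slc7a1), -0.23 and -0.10 (Slc1a4) directly. With libraries 1 and 2 only, with or without the block, Slc7a11 stood at 0.039 with IL-27 and Slc1a5 at -0.0057 directly. None of these was called. The cause of these changes was not tested. Depth limits Slc1a4, at 0 to 17 estimated fragments.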
